A study of Mus musculus with 6 samples.

Results

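The 9 genes described here encode the switch that lets a resting cell leave G1: the D-type cyclins (Ccnd1, Ccnd2, Ccnd3), their kinase partners (Cdk4, Cdk6), the inhibitors p21 and p27 of the Cip/Kip family (Cdkn1a, Cdkn1b), and the INK4 locus genes (Cdkn2a, Cdkn2b). They were taken by gene symbol from the deposited count table, which lists 12023 genes, and all 9 were found there. Primary fibroblasts of the mammary fat pad came from healthy BALB/c and C57BL/6 females of 8 to 12 weeks and were cultured for 4 days on a collagen coat, with 3 biological replicates per strain (the housing label gives 8 weeks). The labels name no treatment or transgene. The design text asks for the baseline difference between the strains and says that cells were separated with magnets, without naming what was selected. Reads were counted at the 3′ ends of polyadenylated RNA. Levels are given as CPM, each gene's counts scaled to a common library size with edgeR's TMM factors, which does not correct for differences between genes.

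D-type cyclins are made in response to growth factors and activate CDK4 and CDK6, which phosphorylate the retinoblastoma protein and so release E2F transcription factors that drive DNA replication genes. INK4 proteins bind CDK4 and CDK6 and block cyclin binding, while p21 and p27 act mainly on CDK2 complexes and also help cyclin D and CDK4 assemble. In cultured fibroblasts p21 is a target of p53, and the INK4 locus is known for being switched on with repeated passage and senescence. Cyclin D1 is also known for its part in the growth of mammary epithelium.

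Total counts were 1035485 to 4665896 per library, so that 3 counts stood for 0.612 to 2.90 CPM. The libraries were not uniform. C57BL/6 replicate 1 stood apart, with a mean correlation of 0.779 with the other 5 libraries over tested genes against 0.870 to 0.910 for the others. Of 12 listed fibroblast markers 11 were in the table, with Lum not in it, and they held 0.217% to 1.29% of all counts, lowest in C57BL/6 replicate 1. Of 12 markers of mammary epithelium 11 were in the table, with Trp63 not in it, and they held 0.202% in BALB/c replicate 1 and 0.313% in C57BL/6 replicate 2, against 0.910% to 1.59% in the other 4 libraries. The epithelial share exceeded the fibroblast share in C57BL/6 replicates 1 (1.59% and 0.217%) and 3 (1.07% and 0.640%). The same held for BALB/c replicates 2 (1.21% and 0.474%) and 3 (0.910% and 0.823%). BALB/c replicate 1 and C57BL/6 replicate 2 went the other way. No library had a larger epithelial share than C57BL/6 replicate 1. The lists hold different genes, so these shares do not give proportions of cells. Macrophage markers, 12 of 12 in the table, held 0.0689% to 0.101% in BALB/c and 0.0967% to 0.159% in C57BL/6. Endothelial markers (8 of 9 in the table) stayed at or below 0.00900%, Fabp4, the 1 of 7 adipocyte markers in the table, at or below 0.00705%, and all 9 pericyte and smooth muscle markers were in the table. These last held 0.0495% to 0.0645% in BALB/c and 0.0718% to 0.0924% in C57BL/6, so that every C57BL/6 library lay above every BALB/c library. None of the listed lymphocyte or erythroid genes was in the table. In such bulk samples fewer cells of a type and less RNA per cell cannot be told apart.

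Of the 9 genes, 8 passed the count filter and were tested, and Cdkn1b did not. At an adjusted p under 0.05 in edgeR's quasi-likelihood test 0 of the 8 differed between the strains, where 0.206% of all 8752 tested genes did. With DESeq2 1 of the 8 passed, where 71 of all 8752 tested genes did. With limma-voom 0 of the 8 passed, where 3 of all tested genes did. When limma-voom weighted libraries by quality 0 of the 8 passed, where 57 of all tested genes did. At an unadjusted p under 0.05 in edgeR there were 2, Ccnd1 and Cdkn2a, where 3.86% of all tested genes reached that level. By direction, 0.0686% of all tested genes were called higher and 0.137% lower in BALB/c, and 1.33% were higher and 2.54% lower at the unadjusted level. The same pair were the tested members whose strains did not overlap, both higher in BALB/c. Of all tested genes 11.4% had no overlap, 5.15% with every BALB/c library above every C57BL/6 library and 6.22% with every one below. The median log2 difference, BALB/c minus C57BL/6, was 0.09 over the 8 members and 0.01 over all tested genes, with 4 members above 0 and 4 below, where 51.1% of all tested genes lay above 0.

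**Figure D1:**
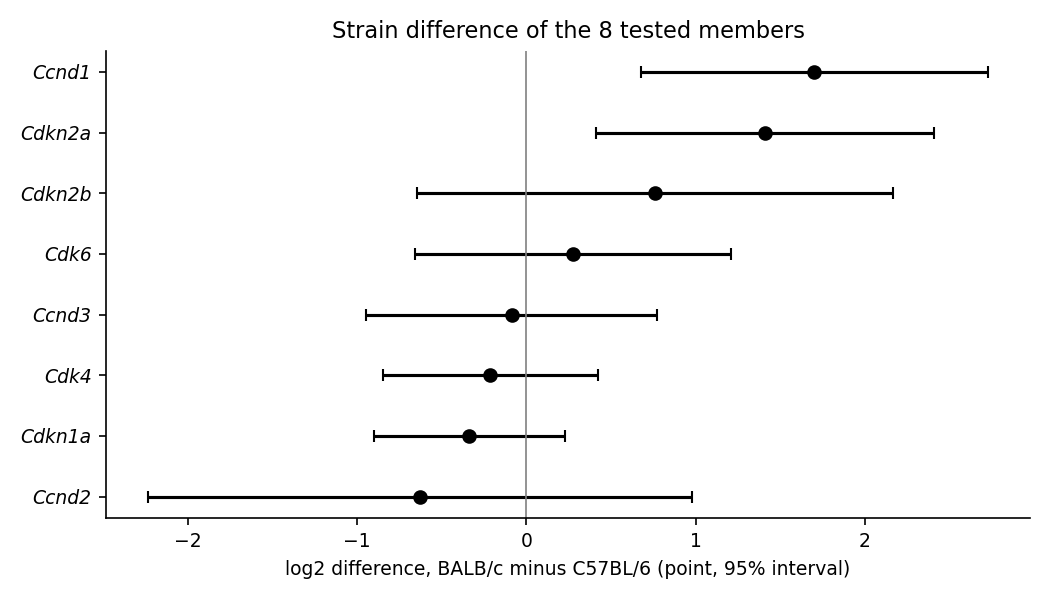
Log2 difference in expression, BALB/c minus C57BL/6, of the 8 tested genes, with points for the edgeR estimate and bars for its unadjusted 95% interval (3 libraries per strain). The intervals of Ccnd1 (0.68 to 2.73) and Cdkn2a (0.41 to 2.41) lie above 0, and the other 6 include 0.

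Ccnd1, the gene of cyclin D1, had the largest log2 difference of the 8. It was at 372, 838 and 1034 CPM in BALB/c replicates 1, 2 and 3, and at 301, 154 and 234 CPM in C57BL/6 replicates 1, 2 and 3. The lowest BALB/c library thus lay above the highest C57BL/6 library, while the BALB/c libraries themselves spanned 2.78-fold. BALB/c averaged 748 ± 340 CPM and C57BL/6 229.8 ± 73.6 CPM (SD, n = 3 each), and the log2 difference was 1.70 ± 0.44 (SE), with an unadjusted p of 0.00550 and an adjusted p of 0.617 in edgeR. DESeq2 gave Ccnd1 a log2 difference of 1.69 and an adjusted p of 0.0396, the single call for any member in the 15 alternatives. Over those alternatives the log2 difference stayed between 1.41 and 2.02 and the adjusted p between 0.0396 and 0.997.

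The shares of the epithelial list and of the pericyte and smooth muscle list were set beside Ccnd1. Within each strain its lowest level, 372 CPM in BALB/c replicate 1 and 154 CPM in C57BL/6 replicate 2, was in the library with the lowest share of epithelial marker counts, 0.202% and 0.313%. The order did not hold throughout. BALB/c replicate 1 had more Ccnd1 than C57BL/6 replicate 1, the library with the highest epithelial share (1.59%, 301 CPM). BALB/c replicate 2 (1.21%, 838 CPM) had less than BALB/c replicate 3 (0.910%, 1034 CPM). The shares of pericyte and smooth muscle markers did not overlap between the strains and were lower in BALB/c, the strain with more Ccnd1. The part of either in the strain difference was not tested.

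Ccnd2, the gene of cyclin D2, varied most of all 9 genes over the libraries, by 9.21-fold. It was at 257, 47.2 and 198 CPM in BALB/c replicates 1, 2 and 3 and at 110.0, 435 and 229 CPM in C57BL/6 replicates 1, 2 and 3. The strains overlapped, and the 2 highest values came from the libraries with the fewest epithelial marker counts and the most fibroblast marker counts (1.20% and 1.29%), C57BL/6 replicate 2 and BALB/c replicate 1. The part of the cell makeup in this was not tested. Its log2 difference was -0.63 ± 0.68 (edgeR adjusted p = 0.954), with a 95% interval of -2.23 to 0.98, so that neither a 4-fold lower nor a 1.5-fold higher level in BALB/c lies outside it. Single libraries moved this value: it was -0.03 without C57BL/6 replicate 2, -0.18 without BALB/c replicate 2, -1.01 without C57BL/6 replicate 1 and -1.09 without BALB/c replicate 1.

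Ccnd3, the gene of cyclin D3, was at 203, 192 and 197 CPM in BALB/c replicates 1, 2 and 3 and at 335, 162 and 134 CPM in C57BL/6 replicates 1, 2 and 3. Its coefficient of variation in BALB/c was 2.94%, below the 5.80% that counting alone gives at these depths, and it was 51.9% in C57BL/6. The C57BL/6 spread came from replicate 1, the library that stands apart. The log2 difference was -0.09 ± 0.37 (edgeR adjusted p = 0.975), and without C57BL/6 replicate 1 it was 0.41 ± 0.17, the other direction, with an adjusted p of 0.967.

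**Figure D2:**
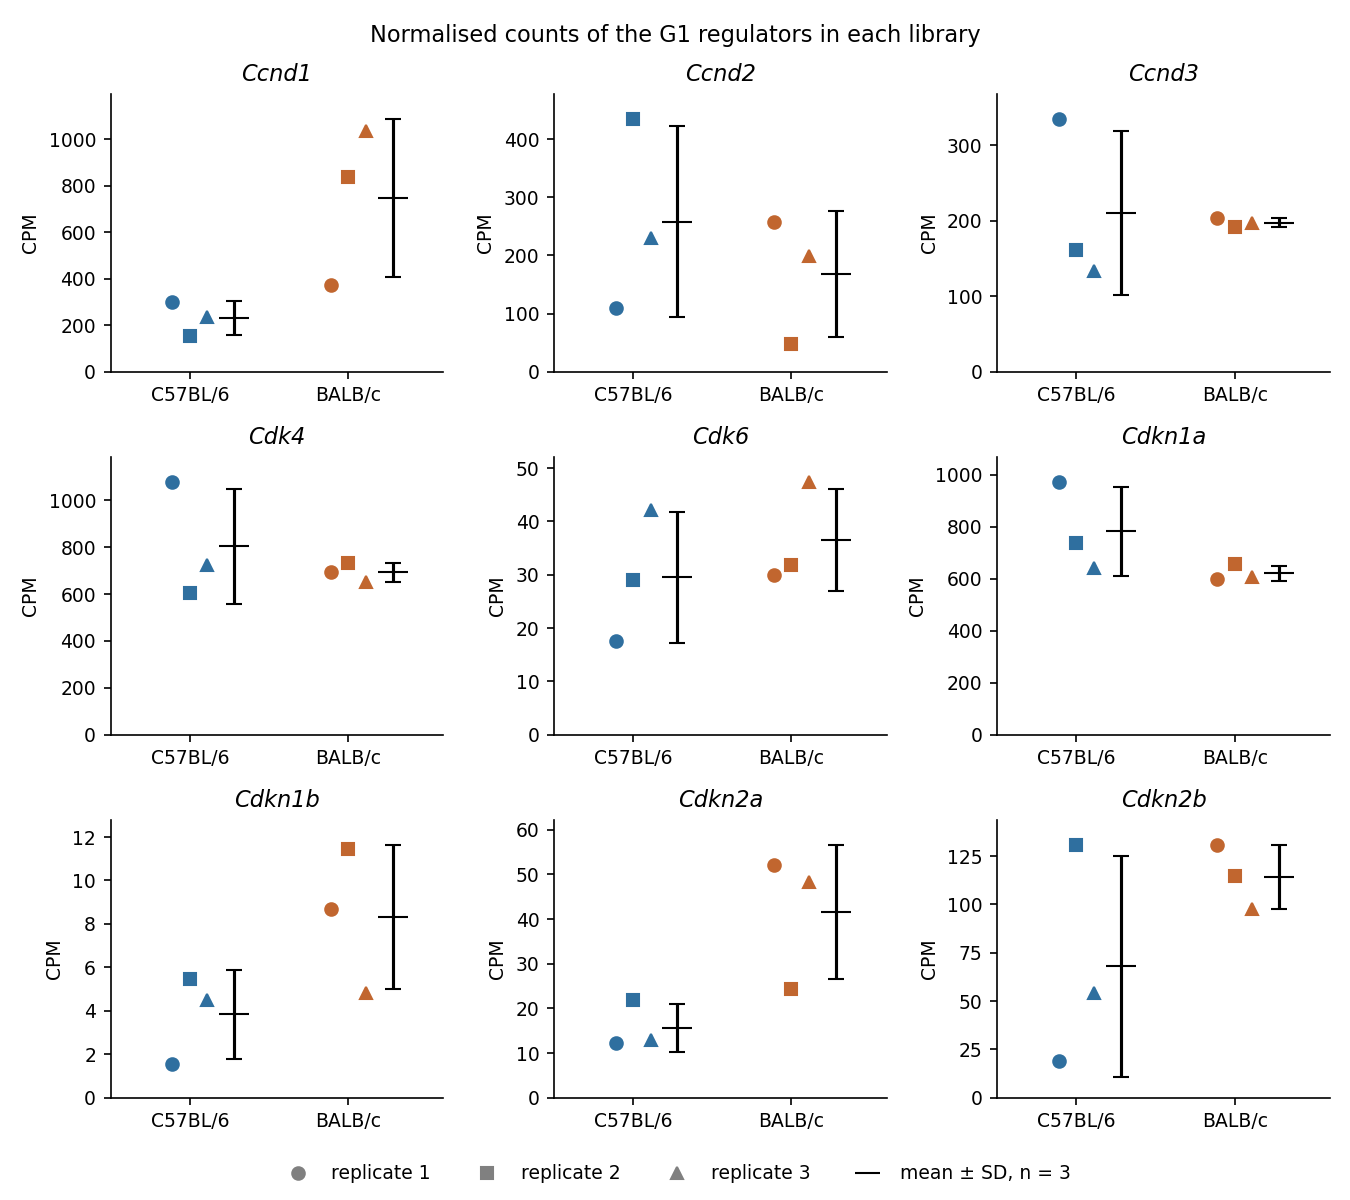
CPM, relative to TMM-scaled library totals, of the 9 genes in each library, with a panel per gene, a linear axis from 0, symbols for replicate numbers and bars for mean ± SD of 3 libraries per strain. In Ccnd1 and Cdkn2a every BALB/c point lies above every C57BL/6 point, and in Ccnd3, Cdk4 and Cdkn1a the BALB/c points lie close together while C57BL/6 replicate 1 is the highest of all 6.

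Shares within a library need no scaling between libraries, so the makeup of the D-type cyclin counts was compared too. Ccnd1 held 44.6% of the summed 3′ counts of the 3 cyclins in BALB/c replicate 1 (exact Clopper-Pearson 95% interval 41.8% to 47.4%, 557 of 1248 counts), 77.8% in replicate 2 and 72.3% in replicate 3. In C57BL/6 replicates 1, 2 and 3 it held 40.3% (37.2% to 43.5%, 394 of 977 counts), 20.5% and 39.2%. These intervals cover counting error only, and those of BALB/c replicate 1 and C57BL/6 replicate 1 overlap. The means were 64.9% ± 17.8 in BALB/c and 33.4% ± 11.1 in C57BL/6 (SD, n = 3 each), a difference of 31.6 percentage points. An exact permutation test, two-sided, gave p = 0.1, which is the smallest that 3 libraries against 3 allow, and 0.2 after Benjamini-Hochberg adjustment over the 2 shares tested. Ccnd2 held 30.9%, 4.39% and 13.9% in the BALB/c libraries, in the order of their replicate numbers, and 14.7%, 58.0% and 38.4% in those of C57BL/6. The Ccnd2 share was lowest in BALB/c replicate 2 and highest in C57BL/6 replicate 2, and the strains overlapped. Shares of counts were compared between libraries and not between the genes. Ccnd3 held 44.9% in C57BL/6 replicate 1 and 13.8% to 24.4% in the other 5 libraries. The summed D-type cyclins averaged 1113 ± 300.1 CPM (SD) over the BALB/c libraries, and 698 ± 87.2 CPM over those of C57BL/6.

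**Figure D3:**
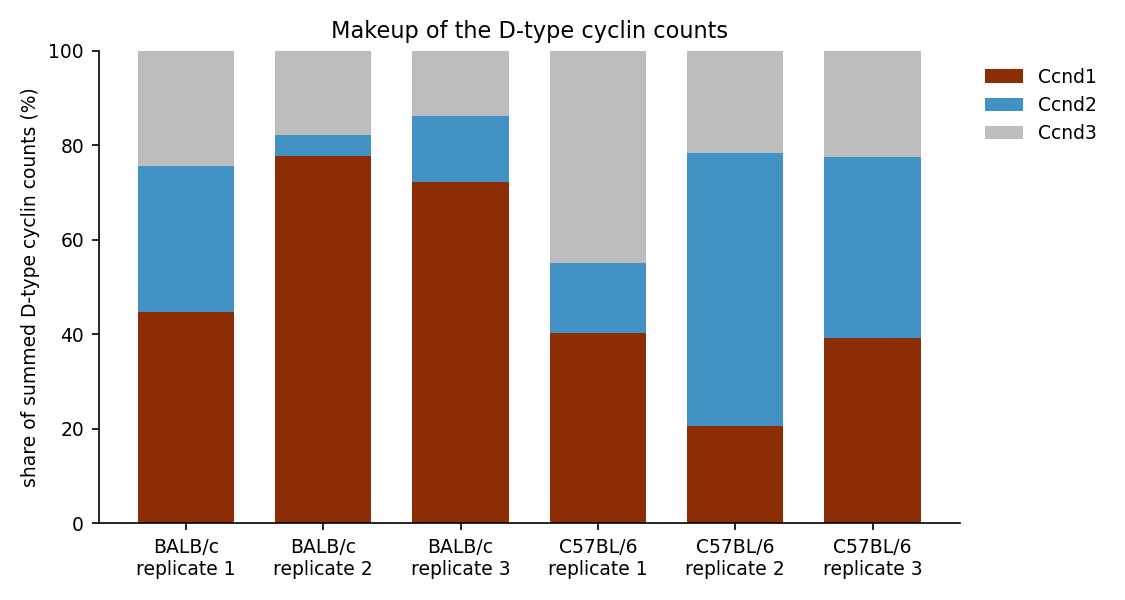
Share (%) of the summed counts of Ccnd1, Ccnd2 and Ccnd3 held by each gene in each library, as stacked bars. The Ccnd1 part is 44.6% to 77.8% in BALB/c and 20.5% to 40.3% in C57BL/6, and the Ccnd2 part is largest, 58.0%, in C57BL/6 replicate 2.

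Of the kinases, Cdk4 varied less over the libraries (1.78-fold from lowest to highest) than Cdk6 (2.70-fold). Cdk4 was at 694, 733 and 652 CPM in BALB/c replicates 1, 2 and 3 and at 1079, 606 and 725 CPM in C57BL/6 replicates 1, 2 and 3. Again the strains overlapped and C57BL/6 replicate 1 was highest. The coefficient of variation was 5.80% in BALB/c, where counting alone gives 3.10%, and the log2 difference was -0.21 ± 0.27 with a 95% interval of -0.85 to 0.42 (edgeR adjusted p = 0.954). Without C57BL/6 replicate 1 it was 0.05. Cdk6, with 23 to 206 counts, was at 30.0, 31.9 and 47.4 CPM in BALB/c replicates 1, 2 and 3 and at 17.6, 28.9 and 42.0 CPM in C57BL/6 replicates 1, 2 and 3. Its log2 difference was 0.28 ± 0.40 (edgeR adjusted p = 0.954), and -0.01 without C57BL/6 replicate 1. Cdk4 held 93.2% to 95.9% of the summed Cdk4 and Cdk6 counts in the BALB/c libraries and 94.5% to 98.4% in those of C57BL/6 (n = 3 each), a mean difference of -1.15 percentage points, with p = 0.6 in the exact permutation test and 0.6 after adjustment.

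Among the Cip/Kip inhibitors Cdkn1a, the p21 gene, was at 599, 655 and 607 CPM in BALB/c replicates 1, 2 and 3 and at 973, 737 and 639.5 CPM in C57BL/6 replicates 1, 2 and 3. The strains overlapped only through BALB/c replicate 2 and C57BL/6 replicate 3. Cdkn1a was the steadiest of the 9 over the libraries, with a highest level 1.62 times the lowest. The log2 difference was -0.34 ± 0.24 with a 95% interval of -0.90 to 0.23 (edgeR adjusted p = 0.954), so a 2-fold difference in either direction lies outside it. Without C57BL/6 replicate 1 the log2 difference was -0.16. Trp53, the gene of the p53 protein that drives Cdkn1a, ranged from 199.4 to 219.7 CPM in BALB/c and from 226 to 254 CPM in C57BL/6. Its strains did not overlap, but the log2 difference of -0.17 was smaller than its SE of 0.21 (adjusted p = 0.954 in edgeR). It is named after its values were seen. Cdkn1b, the p27 gene, had 13, 32 and 5 counts in BALB/c replicates 1, 2 and 3 and 2, 7 and 22 counts in C57BL/6 replicates 1, 2 and 3. These are 8.67, 11.5 and 4.84 CPM against 1.53, 5.47 and 4.49 CPM, and the counting interval of BALB/c replicate 3 alone runs from 1.57 to 11.3 CPM. Its coefficient of variation was 39.9% in BALB/c and 53.6% in C57BL/6, where counting alone gives 28.3% and 39.0%. A difference between the strains was not detected, with a log2 difference of 1.11 ± 0.61 when all genes were fitted without a filter (edgeR adjusted p = 0.961).

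The INK4 locus is on chromosome 4, where Cdkn2a (ENSMUSG00000044303.6, 89274471 to 89294653) and Cdkn2b (ENSMUSG00000073802.5, 89306299 to 89311039) lie side by side on the minus strand of GRCm38, the assembly also called mm10. Cdkn2b encodes the CDK4/6 inhibitor p15. Cdkn2a has 2 first exons with their own starts, which give 2 proteins: p16, an INK4 inhibitor, and p19ARF, which stabilises p53 by binding MDM2. The 2 annotated transcripts end at 89274541 (from the start at 89294653, ARF) and at 89274471 (from the start at 89282192, p16) in a shared last exon, so a 3′ count adds them up. The 2 Cdkn2a transcripts start apart, which their summed 3′ count does not show, while Cdkn2b has counts of its own. The windows around both starts of Cdkn2a and around that of Cdkn2b are shown. They are the RefSeq windows on GRCm38.p6, from 250 bases before to 50 after each RefSeq start. Those starts are 89294619 (ARF), 89282192 (p16) and 89311032 (Cdkn2b), and the ARF and Cdkn2b starts differ from the positions given above. The windows are read 5′ to 3′ along the minus strand, with capitals for GC boxes (GGGCGG) and for a cAMP response element (TGACGTCA).
Cdkn2a, ARF start, chr4:89294570-89294869: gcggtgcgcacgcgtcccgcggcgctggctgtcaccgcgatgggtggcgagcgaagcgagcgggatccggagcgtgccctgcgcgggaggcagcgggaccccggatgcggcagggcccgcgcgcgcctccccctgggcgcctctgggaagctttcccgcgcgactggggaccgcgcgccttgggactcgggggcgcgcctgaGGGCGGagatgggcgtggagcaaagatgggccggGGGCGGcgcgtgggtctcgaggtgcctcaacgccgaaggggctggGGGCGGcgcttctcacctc
Cdkn2a, p16 start, chr4:89282143-89282442: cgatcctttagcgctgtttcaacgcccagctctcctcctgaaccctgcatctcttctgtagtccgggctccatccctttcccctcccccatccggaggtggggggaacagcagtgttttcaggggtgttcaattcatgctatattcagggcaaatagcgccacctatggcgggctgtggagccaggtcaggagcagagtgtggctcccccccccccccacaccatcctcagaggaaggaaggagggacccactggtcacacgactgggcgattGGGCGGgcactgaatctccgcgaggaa
Cdkn2b, chr4:89310983-89311282: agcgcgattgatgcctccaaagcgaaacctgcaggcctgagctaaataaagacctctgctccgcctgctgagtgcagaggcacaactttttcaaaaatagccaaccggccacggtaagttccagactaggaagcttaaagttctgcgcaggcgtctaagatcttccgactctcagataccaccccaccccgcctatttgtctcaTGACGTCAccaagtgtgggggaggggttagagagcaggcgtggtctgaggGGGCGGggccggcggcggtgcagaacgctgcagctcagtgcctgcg
The ARF window holds 3 GC boxes and is 77.0% G or C, the p16 window holds 1 and is 60.3% G or C, and the Cdkn2b window holds 1 GC box and 1 response element. On either strand 35.7% of 32851 such windows of RefSeq genes hold GGGCGG and 1.79% hold TGACGTCA. Of the other motifs searched, none occurs on either strand of the 3 windows: the E2F letters TTCGCGC (in 1.59% of all windows) and TTGGCGC (2.45%), the E-box CACGTG (7.15%), the AP-1 site TGACTCA (5.20%) and the TATA box TATAAA (13.6%). The searched motifs do not contain one another. BALB/c mice are known to carry a p16 allele that inhibits less well than that of C57BL/6, and the windows show the C57BL/6J reference.

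Cdkn2a was at 52.0, 24.3 and 48.4 CPM in BALB/c replicates 1, 2 and 3 and at 12.2, 21.9 and 12.9 CPM in C57BL/6 replicates 1, 2 and 3. Every BALB/c library lay above every C57BL/6 library, though BALB/c replicate 2 and C57BL/6 replicate 2 were within counting error of each other, with exact 95% counting intervals of 18.9 to 30.9 and 14.5 to 31.6 CPM. BALB/c averaged 41.6 ± 15.0 CPM and C57BL/6 15.7 ± 5.40 CPM (SD, n = 3 each), from 196 and 107 counts in all. The log2 difference was 1.41 ± 0.43, with an unadjusted p of 0.0120 and an adjusted p of 0.929 in edgeR, and it stayed between 1.21 and 1.72 in the 15 alternatives, with adjusted p of 0.110 to 1.00. Within each strain the highest Cdkn2a level, 52.0 CPM in BALB/c replicate 1 and 21.9 CPM in C57BL/6 replicate 2, was in the library with the lowest share of epithelial marker counts. Across the strains, BALB/c replicate 2 (1.21% epithelial marker counts) had more Cdkn2a than C57BL/6 replicate 2 (0.313%). Pericyte and smooth muscle markers, lower in every BALB/c library, moved with the strain. The part of either in the difference was not tested.

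Cdkn2b was at 131, 115 and 97.7 CPM in BALB/c replicates 1, 2 and 3 and at 19.1, 131 and 54.1 CPM in C57BL/6 replicates 1, 2 and 3. The BALB/c libraries were close together, with a coefficient of variation of 14.4%, where C57BL/6 had 83.9% and spanned 6.83-fold. C57BL/6 replicate 2 was level with the highest BALB/c library, replicate 1, and both had the lowest share of epithelial marker counts of their strain. The part of the cell makeup in this was not tested. The log2 difference was 0.76 ± 0.60 (edgeR adjusted p = 0.954), and it depended on 2 C57BL/6 libraries: it was 0.33 without replicate 1 and 1.61 without replicate 2, with adjusted p of 0.999 and 0.670. Cdkn2a held 17.5% to 33.1% of the summed counts of both genes in BALB/c and 14.4% to 39.0% in C57BL/6, so this share overlapped between the strains.

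Around these genes, 8 lists with 125 genes of the same pathway were read from the same fit, of which 121 were in the table and 102 were tested. None of the 102 passed the adjusted threshold in edgeR, DESeq2, limma-voom or limma-voom with quality weights, where 0.206% of all tested genes passed in edgeR, and 3, or 2.94%, had an unadjusted p under 0.05 in edgeR against 3.86% of all tested genes. Those 3 were Uhrf1, a maintenance factor of DNA methylation, with 0.84 ± 0.32, the phosphatase gene Cdc25c with 0.93 ± 0.37, and Mcm6, a subunit of the replicative helicase, with -0.54 ± 0.23, each a log2 difference with an edgeR adjusted p of 0.954. They were chosen after their values were seen. The strains did not overlap in 15 of the 102, or 14.7%, against 11.4% of all tested genes.

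Directly below the kinases, 14 retinoblastoma and E2F factors were tested, 10 with a log2 difference above 0 and 4 below, with a median of 0.50. Among all tested genes 51.1% lay above 0. In 7 of the 14 the strains did not overlap, 4 higher and 3 lower in BALB/c, where 11.4% of all tested genes had no overlap. This was the list with the most such genes of the 8. E2f4, a repressive E2F of resting cells, was at 78.0, 77.7 and 72.6 CPM in BALB/c replicates 1, 2 and 3 and at 92.4, 78.9 and 98.8 CPM in C57BL/6 replicates 1, 2 and 3 (log2 difference -0.24 ± 0.22). Tfdp1, the dimer partner of E2Fs, had a log2 difference of 0.65 ± 0.46, with its lowest value, 23.7 CPM, in C57BL/6 replicate 1. The retinoblastoma relatives Rbl1 (p107) and Rbl2 (p130) were named after their values were seen. Their log2 differences had opposite signs, 1.26 ± 0.86 and -0.68 ± 0.39, but rest on few counts. Rbl1 ranged from 0 counts, in C57BL/6 replicate 1, to 24, and Rbl2 from 12 to 102. Rbl1 escaped overlap narrowly, with 7.16 CPM as its lowest BALB/c level and 7.03 CPM as its highest C57BL/6 level. E2f4, Tfdp1, Rbl1 and Rbl2 each had an edgeR adjusted p of 0.954.

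Of 17 tested E2F targets of DNA replication 14 had a log2 difference above 0, with a median of 0.26, where 51.1% of all tested genes lay above 0. Mcm7, another helicase subunit, had 0.35 ± 0.22 and Rrm1, a subunit of ribonucleotide reductase, 0.22 ± 0.25. Of 10 later cyclins, CDKs and their phosphatases and kinases 9 were above 0, with a median of 0.32, and of 13 mitotic genes 7 were, with a median of 0.01. The cyclin genes Ccnb2 and Ccne1 had 0.09 ± 0.28 and -0.36 ± 0.31, and Plk1, a mitotic kinase, and Ube2c, a ubiquitin-conjugating enzyme of mitosis, had -0.48 ± 0.37 and -0.24 ± 0.36. The summed level of the mitotic list was 848, 1102 and 1066 CPM in BALB/c replicates 1, 2 and 3 and 1131, 768 and 1210.2 CPM in C57BL/6 replicates 1, 2 and 3. It was lowest in BALB/c replicate 1 and C57BL/6 replicate 2, the libraries with few epithelial marker counts, of either strain. Not every list had this order. The summed later cyclins and CDKs were highest in BALB/c replicate 1 (338 CPM) and lowest in C57BL/6 replicate 1 (211 CPM). The summed E2F targets were also lowest in C57BL/6 replicate 1 (965 CPM), and stood at 1388 CPM in BALB/c replicate 1. The part of the cell makeup in these levels was not tested.

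The other CDK inhibitors, 4 tested, had a median of -0.17, with Cdkn2d (p19INK4d) at -0.21 ± 0.35 and Cdkn3, a phosphatase that acts on CDKs, at -0.14 ± 0.44. For assembly of the kinases, Cdc37, the co-chaperone that delivers CDK4 to HSP90, had -0.17 ± 0.25 and Hsp90ab1 -0.19 ± 0.29. In the list on turnover of D-type cyclins and p27, 9 of 12 were above 0, with a median of 0.27. Among all tested genes 51.1% lay above 0. The summed level of this turnover list was 844, 831 and 813 CPM in BALB/c replicates 1, 2 and 3. In C57BL/6 replicates 1, 2 and 3 it was 443, 857 and 791 CPM. Cks1b, a cofactor of p27 degradation, had 0.28 ± 0.24, while the F-box gene Fbxw11 had -0.12 ± 0.37. Of 28 upstream regulators 19 were above 0, with a median of 0.14. The AP-1 gene Junb had -0.42 ± 0.35, and Ctnnb1, the gene of beta-catenin, had 0.54 ± 0.67 with 47.4 CPM in C57BL/6 replicate 1 against 319 to 453 CPM in the other libraries. None of these passed the threshold in edgeR (adjusted p of 0.954 to 0.969).

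**Figure D4:**
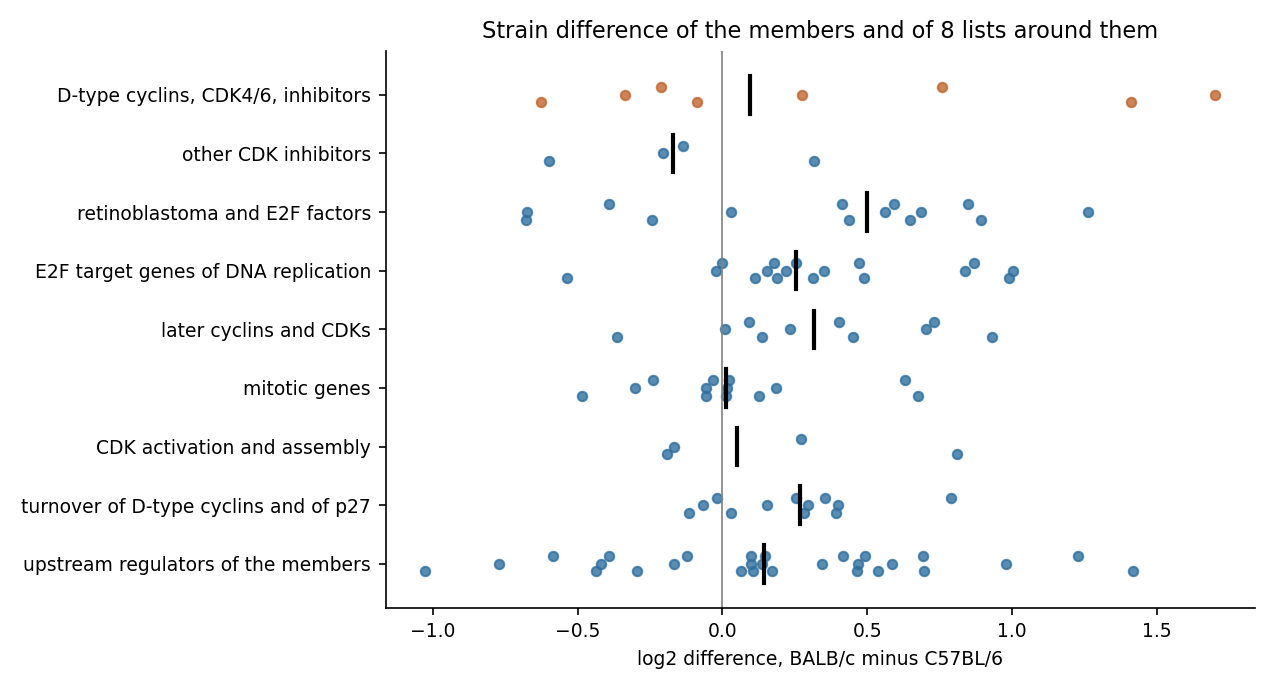
Log2 difference, BALB/c minus C57BL/6, of each tested gene in the list of the 9 genes and in the 8 lists around it, with a point per gene and a black bar for the list median (vertical offsets only separate points). List medians run from -0.17 to 0.50, against 0.01 over all tested genes, and Ccnd1 at 1.70 and Cdkn2a at 1.41 lie at the right end of their list.

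Over the 6 libraries, the genes whose log2 CPM followed Ccnd1 most closely by Pearson correlation, of 5476 with a mean of at least 50 counts, were Mcm3 (r = 0.976), a helicase subunit, Hyou1 (0.969), a chaperone of the endoplasmic reticulum, and Ank (0.965), a pyrophosphate transporter. Those most like Cdkn2a were Pdlim1 (0.989), Rarres2 (0.980), which encodes chemerin, and Tmem97 (0.974). These are descriptions, as the best of so many genes over 6 libraries that also share depth and cell makeup.

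The counts carry limits of position. Ccnd1 (chromosome 7, 144929931 to 144939925, GRCm38) shares 1100 nt of exon with LTO1, Cdk4 (chromosome 10, 127063534 to 127067920) 641 nt with Tspan31, and Ccnd3 (chromosome 17, 47505051 to 47599691) 361 nt with Bysl, all on the opposite strand. Whether counting used the strand is not given, so reads there cannot be told apart. LTO1 had 25 to 83 counts and a log2 difference of 0.21, Tspan31 had 205 to 1171 counts and 0.19, and Bysl had 7 to 35 counts and -0.66 (edgeR adjusted p = 0.954 for each). Ccnd2 shares exon with Gm43126 (372 nt) and 9330179D12Rik (368 nt), Cdk6 with Gm17590 (368 nt) and Cdkn1a with AC167363.2 (273 nt), also on the opposite strand, and none of these partners is a row of the table used. Within the last 500 nt of the coding transcripts, stretches of at least 60 nt with at least 95% identity were found in Ccnd3 (to the pseudogene Ccnd3-ps), Cdk4 (62 nt, to Crlf3) and Cdk6 (to Gm16505, H60b and Raet1e), so these counts are uncertain. None was found for Ccnd1, Ccnd2 (chromosome 6, 127125162 to 127152193), Cdkn1a (chromosome 17, 29090976 to 29100727), Cdkn1b, Cdkn2a or Cdkn2b.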

How the data were processed

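Libraries of 3′ ends of polyadenylated RNA were made from 3 cultures per strain. The authors deposited raw counts per gene symbol. The tools named are STAR 2.4.2a, bcl2fastq and HTSeq, with the build mm10, per the submitters' processing notes, which as used here give no settings, strand use or handling of molecular identifiers. Each column's name is the library name of 1 sample, and groups are the labelled strains. The members and lists were chosen with earlier results of these data known.

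The test was edgeR 4.0.16 (R 4.3.3): filterByExpr by strain (8752 of 12023 genes kept), TMM factors of 0.866 to 1.06, a robust quasi-likelihood fit with strain as the only term, two-sided, with Benjamini-Hochberg adjustment over all tested genes at 0.05. The biological coefficient of variation was 41.1%. The standard error is the log2 difference divided by the square root of F, and 95% intervals use the moderated degrees of freedom. Alternatives used DESeq2 1.42.0, limma 3.58.1, other scalings and filters, the replicate number as a term, and each library left out. Log2 CPM for correlations used a prior count of 2. The script was tested on simulated data whose planted log2 changes were all larger than that of any member, so smaller differences were not covered. All 9 members are named, and from each list the genes past the threshold or, with none, the 2 with the highest mean log2 CPM. The 3 genes most correlated with Ccnd1 and with Cdkn2a are named too, leaving out predicted genes and clones by symbol. Positions are from GENCODE vM21 on GRCm38, copies were searched with BLAST+ 2.17.0, and promoter windows are from RefSeq, which listed 7 of the 9 members, Ccnd1 and Ccnd2 not among them. Total counts of 1035485 to 4665896 set the counting precision, which intervals at 95% cover without the spread between libraries.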

Additional observations from a re-analysis of the deposited data

How the results depend on the processing

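The log2 differences of Ccnd1, Ccnd2, Cdkn1a, Cdkn2a and Cdkn2b kept their direction in all 15 alternatives. The count of members past the threshold was 0 in 14 of the 15 alternatives and 1 with DESeq2. The count of pathway list genes past it was 0 in all 15. Of all genes, 18 passed in the reported fit, 11 with library totals alone, 71 with DESeq2, 3 with limma-voom and 57 with library quality weights, and 0 to 25 when 1 library was left out (0 when that library was C57BL/6 replicate 3 or BALB/c replicate 2 or 3). The cause was not tested. Fewer libraries enter each fit that leaves 1 out. With the replicate number as a block, 0 of all genes passed (158 at an unadjusted p under 0.05). The labels give the numbers no meaning beyond a name. The deviations of libraries with the same number from their strain means correlated at -0.42, -0.40 and -0.08. With 3 libraries per strain, these values cannot tell whether cultures with the same number were prepared together. Under the block Ccnd1 had a log2 difference of 1.65 and an unadjusted edgeR p of 0.0292, and Cdkn2a 1.39 and 0.0544. Directions reversed for Ccnd3, to 0.0402 with library totals alone, 0.0443 with limma-voom, 0.47 with quality weights and 0.0310 with the replicate block, and for Cdk6, to -0.10 with quality weights. When 1 library was left out, Ccnd2 ranged from -1.09 to -0.03, Cdkn1a from -0.48 to -0.16, and Cdkn2b from 0.33 to 1.61. In the same way Ccnd3 ranged from -0.3538 to 0.4136, Cdk4 from -0.3613 to 0.0490 and Cdk6 from -0.0085 to 0.6254, with the sign of these 3 turned without C57BL/6 replicate 1. The difference in the Ccnd1 share was 25.1 to 41.7 percentage points, and that in the Cdk4 share -1.95 to -0.01, when 1 library was left out. Depth limits Cdkn1b, Cdk6 and Cdkn2a most.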
